A study of Homo sapiens with 17 samples.

Results

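The abundance of poly(A) RNA in HEK293T cells after siRNA against TARDBP was compared with that in WT HEK293T cells, using the 3 siTDP43 input libraries and the 3 WT input libraries of a series of 17. The libraries were taken by their labels, and no measured value entered the choice. Of 23368 genes in the count table, 14036 passed the filter on low counts and were tested. The results are ordered by the targeted gene and its partners, by pathway, by gene class, by gene span and by position on the chromosomes.

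The series measured N4-acetylcytidine (ac4C) in RNA by pull-down with an antibody (acRIP), and an input library holds the RNA before the pull-down. HEK293T is a human embryonic kidney cell line that carries adenoviral E1A and E1B and the SV40 large T antigen, and both groups share this background. The WT input group is labelled with genotype WT and no antibody, and the siTDP43 input group with genotype siTARDBP and no antibody. Per the methods, siRNAs were transfected transiently with Lipofectamine RNAiMAX, and cells for RNA were lysed after a single transfection in multiwell plates or, later, after a repeated one in dishes. Which of these schemes the input libraries followed is not given. The labels do not say that the WT cells received the control siRNA that the study used elsewhere. Effects of transfection, of less TDP43 and of cell stock, culture or library batch therefore cannot be told apart. The methods say that most experiments held independent samples, without naming these libraries, and the labels do not say that replicates came from separate cultures, so p-values measure the spread between libraries, which may be technical.

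TDP43, encoded by TARDBP, is a nuclear protein that binds UG-rich stretches of RNA, mostly in introns, and it is known for keeping cryptic exons out of mRNAs and for maintaining the mRNAs of genes with very long introns. It also acts on its own mRNA in a feedback loop. In the study it is an RNA-binding partner of NAT10, the enzyme that writes ac4C.

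The siRNA sense strands are shown because they set where TARDBP was targeted. Capitals mark the bases that pair with the seed (bases 2 to 8) of the guide strand, and the last 2 bases of each are overhangs.
siTDP43 siRNA 1: ggcugguagaaGGAAUUCutt
siTDP43 siRNA 2: gucacagcgacAUAUGAUatt
In hg19 the first matched the coding sequence of TARDBP in exon 2 of 6 (chr1:11073948-11073966, plus strand) and the second the coding sequence in exon 4 (chr1:11078873-11078891, plus strand). A read from outside the targeted site does not depend on it, so the count of TARDBP does not separate intact mRNA from cleaved pieces.

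TARDBP (chromosome 1, 11072679 to 11085549) had 157, 165 and 159 CPM (counts scaled to a common library size by TMM) in WT inputs and 104, 108 and 111 CPM in siTDP43 inputs. Every siTDP43 library was below every WT library. The siTDP43 level was 67.2% of WT, a log2 change of -0.57 (SE 0.0451, adjusted p 6.55e-13, edgeR quasi-likelihood test with Benjamini-Hochberg adjustment). An exact two-sided permutation test of the CPM gave p = 0.1, the smallest that 3 against 3 libraries allow. This change was small beside others in the same comparison, as 8472 genes (60.4% of those tested) had a larger absolute log2 change than TARDBP.

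NAT10 mRNA was higher in siTDP43. It had 53.1, 54.8 and 54.2 CPM in WT and 122, 115 and 116 CPM in siTDP43, with no overlap, a log2 change of 1.12 (SE 0.05, adjusted p 5.12e-19). THUMPD1, the cofactor of NAT10 in tRNA acetylation, had 24.3, 24.3 and 23.7 CPM in WT and 43.2, 37.8 and 39.9 CPM in siTDP43, and its log2 change of 0.75 passed the test (adjusted p 1.11e-10). The poly(C)-binding proteins fell. PCBP1 went from 85.6 ± 2.45 to 48.6 ± 0.729 CPM (SD, n = 3 libraries each), a log2 change of -0.82, and PCBP2 from 133 ± 5.08 to 52.7 ± 1.12 CPM, a log2 change of -1.33 (adjusted p 8.73e-15 and 6.81e-21). Exons of PCBP2 overlap those of another gene on the opposite strand, and the strand setting of the counts is not stated. The study's own RT-qPCR used a control siRNA as reference. It reported slight changes of TDP43 and NAT10 after PCBP1/2 knockdown, and stated that the converse held.

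Across all genes, 5414 were higher in siTDP43 (38.6% of those tested) and 5699 lower (40.6%) at an adjusted p under 0.05. With a fold change above 2 as well, 2180 were higher (15.5%) and 3037 lower (21.6%). The 4 percentages are the background for the counts of genes in each list that follow. Upper quartile scaling shifted this split to 4247 higher and 6986 lower. A fold above 8 was reached by 177 genes higher and 449 lower. The groups did not overlap for 11285 genes (80.4%). The median log2 change over all genes tested was -0.05 with TMM, -0.14 with total count scaling and -0.30 with upper quartile scaling, so each median of a gene list is to be read against the median of all genes. Under upper quartile scaling the medians of spliceosomal snRNP proteins (0.02 to -0.23), one-carbon and serine synthesis (0.05 to -0.20), lysosomal genes (0.15 to -0.10) and mitochondrial ribosomal proteins (0.24 to -0.01) changed sign, as the scaling moves every gene alike, and not relative to all genes. Under total count scaling the same held for the first (-0.07) and the second (-0.05). In bulk RNA, fewer cells that express a gene and less RNA per cell cannot be told apart.

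The 6 libraries held from 24542434 to 36583436 counts, and Spearman correlations between replicates across genes were 0.981 to 0.987. No pair of replicates agreed within sampling noise, with chi-square per degree of freedom from 3.23 to 8.24. That statistic took each count as independent. Since read pairs were mostly counted as 2 reads, the excess over sampling noise is overstated. Changes were related to base composition: the Spearman rho across genes of the log2 change with the GC content of the exons was -0.319 (14036 genes, which are not independent). Of genes over 60% GC, 43.6% were more than 2-fold lower, against 9.55% of genes under 40% GC. Medians with this trend removed from each library are given beside those of the lists. More abundant genes were also higher on average (rho of the log2 change with mean count 0.268).

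**Figure D1:**
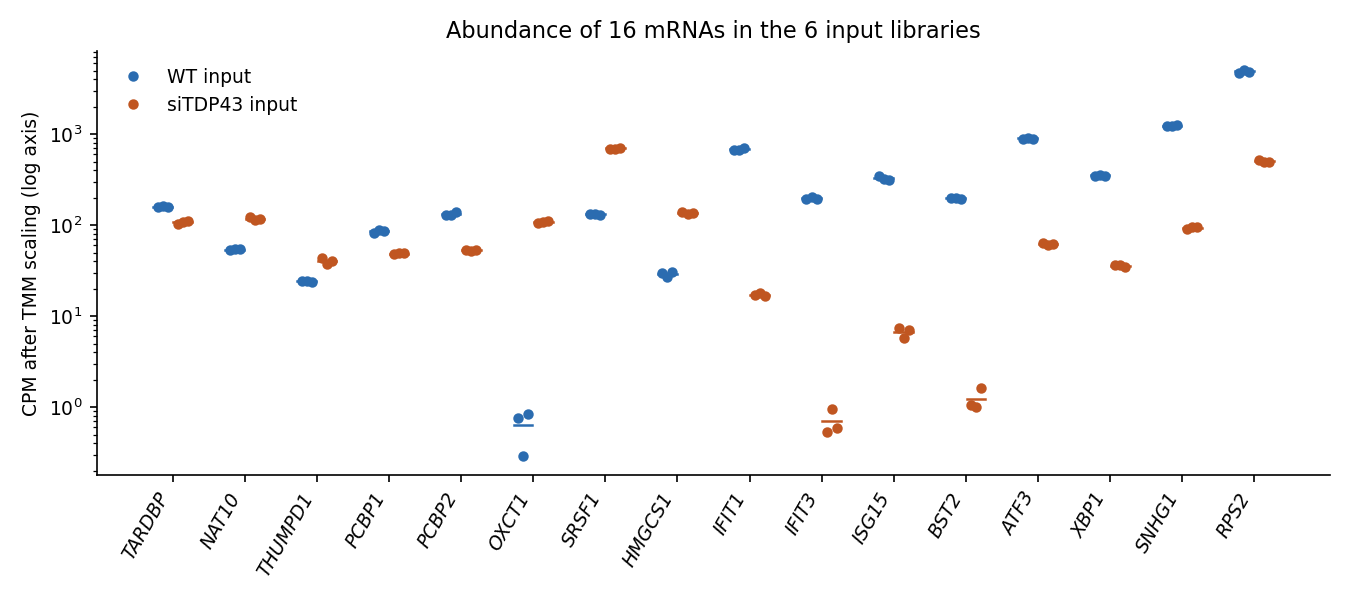
Each point is a library's CPM after TMM scaling on a log axis for 16 named mRNAs, blue for WT input and orange for siTDP43 input, and bars are means of 3 libraries. TARDBP went from 160 to 108 CPM while OXCT1 rose from 0.631 to 109 and IFIT3 fell from 197 to 0.696, and the groups are apart for all 16.

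OXCT1, which encodes the mitochondrial transferase that lets a cell use ketone bodies, was nearly absent from WT and well expressed in siTDP43. OXCT1 (chromosome 5, 41730167 to 41870791) had 22, 11 and 28 counts in WT inputs (0.762, 0.293 and 0.838 CPM) and 3223, 2600 and 2958 counts in siTDP43 inputs (107, 109 and 109.9 CPM). Every siTDP43 library was above every WT library, and the log2 change was 7.46 (adjusted p 3.06e-30), which rests on few counts in WT. The other enzymes of ketone metabolism did not move as a group. Of 7 tested from a list of 9, 4 were higher and 2 lower, with 2 more than 2-fold higher. The other member above 2-fold was BDH1, 3-hydroxybutyrate dehydrogenase, with 3.67, 5.23 and 4.73 CPM in WT and 18.4, 17.1 and 16.3 CPM in siTDP43, a log2 change of 1.92 (adjusted p 2.32e-14).

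Other large rises also started from few or no counts in WT. NPY1R, a receptor for neuropeptide Y, had no count in WT and 240, 204 and 272 counts in siTDP43, at least 97.2-fold higher against a floor of 3 counts per library. NME5, a gene of cilia, had 2, 0 and 0 counts in WT and 312, 267 and 242 in siTDP43, a ratio of 506 with a 95% counting interval from 139.7 to 4187. Pairs were mostly counted as 2 reads, so this interval and those below are too narrow, and the fold bounds too high. NAPRT1, which makes NAD from nicotinic acid, went from 8, 31 and 22 counts to 2021, 1391 and 1593 (log2 change 6.65), and NAAA, a lysosomal amidase, from 8, 12 and 24 to 1010, 765 and 882 (6.20). LXN, an inhibitor of carboxypeptidases, went from 4, 4 and 0 to 324, 236 and 378 (7.10). MKX, a homeobox gene, had 0, 14 and 0 counts in WT, all from 1 library, and 314, 249 and 302 in siTDP43 (6.22). ARMCX5 rose by 6.05 on the log2 scale, and its exons overlap another gene. In all, 38 genes had no count in any WT input and at least 10 in every siTDP43 input, and these included the neuropeptide genes NPY and TAC1, which were named after their values were seen. NPY had 73, 40 and 56 counts in siTDP43 and TAC1 had 188, 130 and 133.

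The reverse pattern was more frequent: 81 genes had no count in any siTDP43 input and at least 10 in every WT input. CCL5, a chemokine, had 5362, 7270 and 6302 counts in WT (186, 194 and 189 CPM) and 0 in each siTDP43 library, at least 1687-fold lower against 3 counts per library. CXCL10, an interferon-induced chemokine, had 1571, 1899 and 1635 counts in WT and 0 in siTDP43, at least 457-fold lower. RSAD2, which encodes the antiviral enzyme viperin, went from 199, 320 and 296 to 0 (at least 72.1-fold lower). SNX19, a sorting nexin, went from 210, 243 and 228 to 0 (at least 61.1-fold lower). All WT libraries held these mRNAs and none of the siTDP43 libraries did. PNPLA4, a lipase gene on chromosome X, went from 780, 1091 and 952 counts to 0, 0 and 1, a ratio of 2289 (95% counting interval 410.5 to 90450). MFAP2, an extracellular matrix protein, went from 624, 753 and 620 to 0, 0 and 2 (ratio 809.7, interval 223.8 to 6690.0). PSMD5, an assembly chaperone of the proteasome, went from 442, 545 and 518 to 2, 0 and 0 (ratio 610.2, interval 168.6 to 5043). OASL, an antiviral protein related to the oligoadenylate synthetases, went from 3818, 4736 and 4219 to 2, 2 and 4 counts. Its fitted log2 change of -10.28 rests on few counts in siTDP43.

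Genes of the interferon response included CCL5, CXCL10, RSAD2 and OASL, 4 of the 8 genes with the lowest fitted log2 change among those with a mean of at least 100 counts. For genes with no count in siTDP43 the fitted value is no measure of size, and the bound of RSAD2 is smaller than some measured falls in the list. These genes are switched on by STAT and IRF transcription factors when a cell senses foreign nucleic acid or interferon. Of 62 genes listed, 47 were tested, 32 were lower and 10 higher, with 26 and 7 of them past 2-fold. The median log2 change was -1.18 with an interquartile range from -6.46 to 0.22, and the median with GC trend removed was -0.99. The summed CPM of the 47 was 3944 to 4011 in WT and 1417 to 1436 in siTDP43. Among the 47, 8 had no count in siTDP43 and 1 had none in WT, and with those genes at their bounds the median was again -1.18.

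Among these genes, the following were named after their values were seen. IFIT1, which binds uncapped or unmethylated viral RNA, had 669, 678 and 698 CPM in WT and 17.1, 18.1 and 16.5 CPM in siTDP43 (log2 change -5.31, SE 0.051, adjusted p 1.25e-35). IFIT3, its partner, had 194, 202 and 196 CPM in WT and 0.531, 0.964 and 0.594 CPM in siTDP43 (log2 change -8.17). For both genes the groups were far apart, and IFIT3 was near the floor in siTDP43. IFIT2 fell by 8.95, BST2, which tethers budding virions, by 7.31 on the log2 scale, and ISG15, a ubiquitin-like modifier, had a log2 change of -5.60. DDX58, the RNA sensor RIG-I, had 39.6, 38.9 and 39.6 CPM in WT and 6.97, 9.22 and 8.36 CPM in siTDP43 (-2.27).

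Transcripts of interferons themselves were counted in WT inputs. IFNB1, which encodes interferon beta, had 154, 216 and 152 counts in WT and 0 in siTDP43, at least 46.5-fold lower, and IL29, which encodes interferon lambda 1, had 20, 40 and 34 counts in WT and 0 in siTDP43, at least 8.25-fold lower. Other members of the same response were near zero in both groups. MX1 had 2, 4 and 10 counts in WT and 4, 2 and 2 in siTDP43, and OAS1 had 2, 6 and 2 against 0, 0 and 0. The group was not uniform. DTX3L, an E3 ligase, and PARP9, its partner, had 0, 0 and 0 and 0, 4 and 2 counts in WT and 124, 74 and 86 and 166, 100 and 150 counts in siTDP43. DTX3L was at least 38.04-fold higher and PARP9 had a log2 change of 6.32. Their genes lie head to head and exons of both overlap another gene. IFIT5 and IFI35 rose by 1.35 and 1.77 on the log2 scale (adjusted p 9e-16 and 2.86e-14).

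The promoters of the genes that fell to few or no counts are shown because interferon-stimulated response elements, the sites of IRF and STAT factors, are short and can be read in them. Bases before the RefSeq start (GRCh38.p14) are given on the strand of the gene, and capitals mark matches, on either strand, to the response element motif (GAAA, any 2 bases, GAAA, which reads TTTC, any 2 bases, TTTC on the other strand) or to a motif like that of NF-kappaB (GGGA, any 2 bases, TTCC, or GGAA, any 2 bases, TCCC).
CXCL10 (chr4:76023498-76023747, minus strand): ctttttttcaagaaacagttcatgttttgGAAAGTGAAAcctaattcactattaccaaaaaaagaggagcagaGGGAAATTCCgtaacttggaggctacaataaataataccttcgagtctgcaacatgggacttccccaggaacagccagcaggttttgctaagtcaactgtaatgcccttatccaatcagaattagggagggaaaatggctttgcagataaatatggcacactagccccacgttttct
RSAD2 (chr2:6877627-6877776, plus strand): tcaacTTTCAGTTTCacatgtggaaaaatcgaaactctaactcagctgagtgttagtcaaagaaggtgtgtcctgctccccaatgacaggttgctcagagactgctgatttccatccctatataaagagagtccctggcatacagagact
IFIT3 (chr10:89332379-89332528, plus strand): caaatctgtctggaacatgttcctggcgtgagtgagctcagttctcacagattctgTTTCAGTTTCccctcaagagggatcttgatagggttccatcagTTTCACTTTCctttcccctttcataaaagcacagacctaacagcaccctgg
BST2 (chr19:17405631-17405780, minus strand): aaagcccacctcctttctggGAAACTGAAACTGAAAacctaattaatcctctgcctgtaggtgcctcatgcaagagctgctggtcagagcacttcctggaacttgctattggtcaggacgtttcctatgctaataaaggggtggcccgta
RSAD2 had 1 match to the response element motif, IFIT3 had 2, BST2 had 2 that overlap each other, and CXCL10 had 1 match to each motif. Over promoters of 250 bases before and 50 after the start, the response element motif was found in 3.57% of the 35116 promoters of the RefSeq table and in 2.75% of the 10933 that matched a gene tested. Among the interferon list, 39 tested genes had a promoter in the table and 61.5% of these held the motif, and among the 21 that were more than 2-fold lower 71.4% did. Many genes of the list are known for such sites, so the share describes the list. CCL5, OASL and IFIT2 have no entry.

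Targets of NF-kappaB, the transcription factor of inflammatory signalling, were lower as well. Of 17 tested, 13 were lower and 1 higher, with 12 and 0 of them past 2-fold, and the median log2 change was -2.24 (GC trend removed, -2.01). Most were rare: 5 had a mean of at least 100 counts, and their median was -0.97. CCL2 and CCL20, both chemokines, had 127, 106 and 88 and 66, 99 and 62 counts in WT and 0 in siTDP43, at least 29.3-fold and 20.1-fold lower. NFKBIA, the inhibitor that NF-kappaB induces, had 72.4, 70.4 and 76.8 CPM in WT and 38.3, 36.3 and 37.4 CPM in siTDP43 (log2 change -0.97). SOD2, the mitochondrial superoxide dismutase, rose by 0.93, from 87.4, 88.5 and 87.2 to 172, 169 and 159 CPM. The summed CPM of the list was 206 to 212 in WT and 209 to 226 in siTDP43. NFKBIA, CCL2 and CCL20 were named after their values were seen. NFKB1 had a log2 change of -0.08 with overlapping groups (adjusted p 0.686). In the promoters, the motif like that of NF-kappaB was found in 35.7% of the 14 list genes matched, in 22.2% of the 9 of these that were more than 2-fold lower and in 1.47% of promoters of genes tested.

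**Figure D2:**
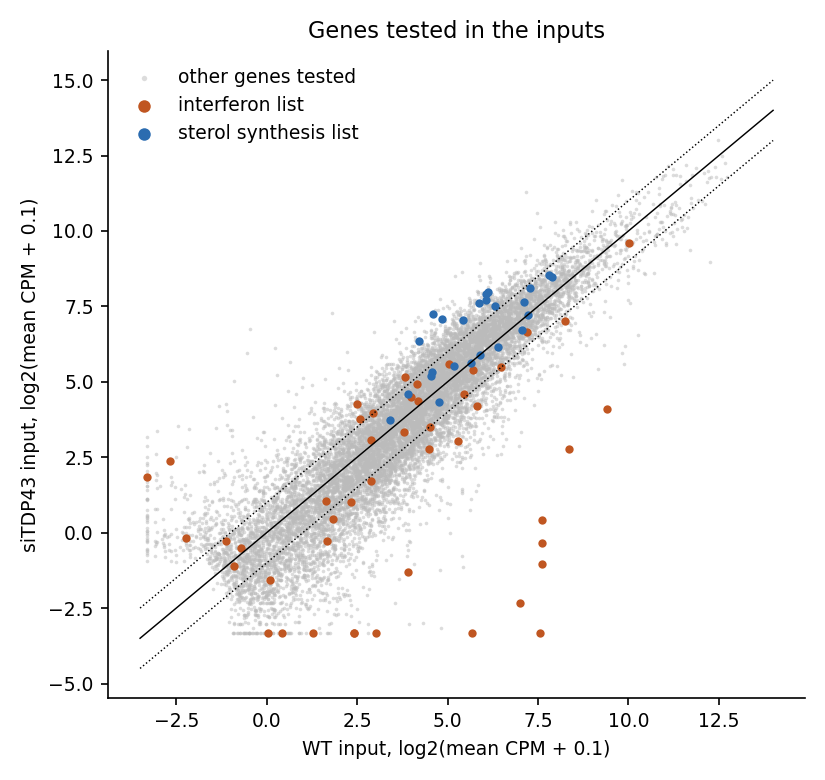
Each point is a tested gene, placed by log2(mean CPM + 0.1) over 3 WT inputs on the x axis and over 3 siTDP43 inputs on the y axis, with the interferon list in orange and the sterol synthesis list in blue. Dotted lines mark a 2-fold difference; 26 interferon genes lie below the lower line and none of the 24 sterol genes does.

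Immediate early genes and genes of stress signalling were lower together. Of 24 immediate early genes and related growth factors and regulators tested, 19 were lower and 4 higher, with 18 more than 2-fold lower, and the median was -1.57 (GC trend removed, -1.30). ATF3, a transcription factor induced by stress, had 889, 911 and 897 CPM in WT and 63.2, 61.3 and 61.9 CPM in siTDP43, a log2 change of -3.85 (SE 0.042, adjusted p 1.37e-34). KLF4 fell by 3.97 on the log2 scale, and DUSP1, a phosphatase that turns off MAP kinases, had -2.36. FOS and JUN, which pair as AP-1, had -1.48 and -1.05. The exceptions included KLF6, which rose by 2.52, CCND1, which encodes cyclin D1 (1.13), and MYC (0.39). DUSP1, FOS, JUN and MYC were named after their values were seen. Of 35 genes of the unfolded protein and integrated stress responses, 25 were lower and 4 higher, with 14 more than 2-fold lower and a median of -0.78 (GC trend removed, -0.87). Their summed CPM was 14052 to 14284 in WT and 6539 to 6614 in siTDP43.

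XBP1, the transcription factor of the unfolded protein response, had 350.0, 355 and 349.9 CPM in WT and 36.1, 36.4 and 34.3 CPM in siTDP43 (log2 change -3.30, SE 0.047, adjusted p 8.79e-32). HSPA5, the chaperone BiP of the endoplasmic reticulum, had 3301, 3374 and 3409 CPM in WT and 666, 669 and 658 CPM in siTDP43 (-2.34). The groups were more than 4-fold apart for both. Other genes of these responses fell too. TRIB3 fell by 3.16, PPP1R15A, which restores translation after stress, by 2.51, DDIT3, which encodes CHOP, by 2.31, CHAC1 by 2.27 and ASNS, asparagine synthetase, by 1.84 on the log2 scale, while ATF4 fell by 0.51. Exons of DDIT3 overlap another gene. Calnexin (CANX) and SEL1L, both of the endoplasmic reticulum, rose by 1.15 and 0.91. All of the genes in this paragraph apart from XBP1, CANX and SEL1L were named after their values were seen.

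Genes for RNA-binding proteins moved in different directions by family. The SR proteins, splicing factors with arginine- and serine-rich tails, had the highest median of the lists tested, at 1.17 (GC trend removed, 0.90), and 9 of 12 were higher and 3 lower, with 6 more than 2-fold higher. Their summed CPM was 1419 to 1466 in WT and 3908 to 4081 in siTDP43. SRSF1 had 132, 132 and 129 CPM in WT and 688, 695 and 713 CPM in siTDP43 (log2 change 2.41, SE 0.039, adjusted p 4.04e-30), and SRSF6 rose by 2.01. SRSF9 went the other way, from 58.2, 65.2 and 63.4 CPM to 14.3, 11.99 and 15.3 CPM (log2 change -2.16), and its exons overlap another gene.

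Of 25 hnRNP genes, the family to which TARDBP belongs, 13 were higher and 11 lower, with 8 and 5 past 2-fold. SYNCRIP and HNRNPM rose by 1.56 and 1.41, and HNRPLL and HNRNPUL1 fell by 1.41 and 1.33. The median was 0.27, and -0.08 with the GC trend removed. Proteins of the spliceosomal snRNPs were split, with 15 higher and 16 lower of 36. SF3A2 fell by 4.58 and SNRNP70, the U1-70K protein, by 2.73, while SF3B3 rose by 1.91. Of 18 factors of nonsense-mediated decay, 11 were lower and 6 higher. UPF1, the helicase of the pathway, went from 17.9, 17.5 and 15.2 CPM to 2.99, 2.60 and 3.42 CPM (log2 change -2.48).

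Among known targets of TDP43 splicing repression more were lower than higher. Of 20 listed, 17 were tested, 9 were lower and 2 higher, with 6 and 0 of them past 2-fold, and the median was -0.39. Over all genes 40.6% were lower and 38.6% higher, and 21.6% and 15.5% past 2-fold. HDGFRP2 had 5.82, 6.61 and 6.74 CPM in WT and 0.996, 0.629 and 0.817 CPM in siTDP43 (log2 change -2.95), and AGRN, which encodes agrin, fell by 2.52. Exons of HDGFRP2 overlap another gene, and both genes are GC-rich: with the GC trend removed the changes were -2.13 and -1.25. POLDIP3, whose exon 3 depends on TDP43, fell by 0.52 and ATG4B had 0.06 (adjusted p 0.429). STMN2 and UNC13A, the neuronal targets best known from disease, were close to absent, at 2, 4 and 0 against 2, 0 and 0 counts and at 4, 8 and 10 against 4, 4 and 6. A gene count does not show which exons were used, so splicing was not measured here. POLDIP3, ATG4B, STMN2 and UNC13A were named after their values were seen.

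Cytosolic ribosomal protein mRNAs were lower nearly throughout in the inputs. Of 77 tested, 66 were lower and 6 higher, with 25 and 0 of them past 2-fold. The median log2 change was -0.76, or -0.82 with the GC trend removed and -0.38 with a trend on exonic length removed. Together they took 183709 to 192297 CPM in WT and 119506 to 123651 CPM in siTDP43. RPS2 had the largest fall, from 4738, 5076 and 4882 CPM to 525, 495 and 489.8 CPM (log2 change -3.28, SE 0.039), and RPL28 went from 1040, 1057 and 1046 CPM to 206, 184 and 198 CPM (-2.42). RPL7 and RPS6 were among the 6 that rose, by 0.85 and 0.58. Ribosomal protein genes have many processed pseudogenes, and the methods state that only uniquely mapped reads were counted, so reads shared with a pseudogene are missing and single values are uncertain.

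Other mRNAs that start with a terminal oligopyrimidine tract, the 5' feature shared by ribosomal protein mRNAs, were listed after the ribosomal proteins were seen. Of 15, 10 were lower and 5 higher, with a median of -0.49 (GC trend removed, -0.38). With a trend on exonic length removed the median was -0.16, beside -0.03 for all genes. Of all genes with under 1 kb of exons, 27.4% were more than 2-fold lower and 6.7% more than 2-fold higher. TPT1 fell by 1.57 and PABPC1, the poly(A)-binding protein, by 1.10, while EEF1A1, the elongation factor, rose by 0.54 and EIF4B by 0.46. EEF2 fell by 1.03. Mitochondrial ribosomal proteins did not share the fall: 44 of 76 were higher and 20 lower, with a median of 0.24. MRPS7 and MRPL38 rose by 1.55 and 1.54 and MRPL23 fell by 2.44.

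Genes of ribosome biogenesis, which act in the nucleolus on pre-rRNA, were higher. Of 54, 40 were higher and 10 lower, with 18 and 1 of them past 2-fold, and the median was 0.69 (GC trend removed, 0.50). POLR1B, a subunit of RNA polymerase I, had 51.4, 48.6 and 48.6 CPM in WT and 209.8, 213 and 202 CPM in siTDP43 (log2 change 2.07), and HEATR1, whose exons overlap another gene, rose by 1.96. FBL, the methyltransferase of box C/D snoRNPs, fell by 0.78. Aminoacyl-tRNA synthetases had a median of 0.44 (GC trend removed, 0.20), with 24 of 35 higher and 8 lower. HARS rose by 2.12 and TARS2 by 1.61, while CARS2 fell by 1.14. Of 37 initiation factors 21 were higher and 13 lower, with EIF4G2 at 1.90 and EIF1 at -1.41.

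Sterol synthesis was the metabolic pathway with the highest median, at 0.72 (GC trend removed, 0.87). Of 24 genes tested, 18 were higher and 3 lower, with 9 and 0 of them past 2-fold, and the summed CPM was 1818 to 1829 in WT and 3371 to 3430 in siTDP43. HMGCS1, which makes the HMG-CoA of the pathway, had 29.6, 26.6 and 30.3 CPM in WT and 140.4, 132 and 135 CPM in siTDP43 (log2 change 2.24, SE 0.0569, adjusted p 2.86e-25). Every siTDP43 library was above every WT library. SQLE, squalene epoxidase, rose by 1.84, FDPS by 0.57 and INSIG1 by 0.54, all named after their values were seen. SREBF2, which encodes the transcription factor of the pathway, went from 25.5, 30.6 and 25.8 CPM to 20.02, 21.1 and 19.3 CPM (-0.44), a change of -0.05 with the GC trend removed (adjusted p 0.619).

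In fatty acid synthesis 5 of 10 genes were higher and 4 lower. SCD, which desaturates stearate, rose by 1.89 and ELOVL6 by 1.51, while FADS2 fell by 1.95. FASN fell by 0.89, a direction that reversed with the GC trend removed (0.12). Of 17 glycolytic enzymes 11 were higher and 5 lower, with PGAM1 at 1.74, PKM2 at 1.23 and ALDOC at -1.04. Nuclear genes of oxidative phosphorylation had a median of -0.07, with 28 of 79 higher and 38 lower, 2 and 4 of them past 2-fold, which is below the background of 15.5% and 21.6%. SDHC, of complex II, and ATP5A1, of the ATP synthase, rose by 1.37 and 1.31, and ATP5D fell by 1.97, or by 0.48 with the GC trend removed. Of 12 genes of one-carbon and serine synthesis 6 were higher and 4 lower, none of them past 2-fold, with a median of 0.05. Exons of FDPS, SDHC and, among the ribosomal genes above, MRPS7 overlap other genes.

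Among genes of protein turnover, heat shock chaperones were higher for 22 of 30 and lower for 5, with a median of 0.46 (GC trend removed, 0.27). HSPA8, the constitutive HSP70, had 889.9, 918 and 929 CPM in WT and 3292, 3297 and 3334 CPM in siTDP43 (log2 change 1.86), and DNAJA1 rose by 1.79. PTGES3, the cochaperone p23, fell by 1.26. Proteasome subunits were higher for 31 of 45, with a median of 0.37 (GC trend removed, 0.27). PSMD1 and PSMA4 rose by 1.78 and 1.38, and besides PSMD5 the lowest was PSMD3, at -2.05. Lysosomal genes were split, with 20 of 42 higher and 16 lower: ATP6V0D1, of the proton pump, rose by 1.64, and LAMP1 went from 9.60, 9.90 and 9.43 CPM to 1.93, 1.09 and 0.817 CPM (-2.89). Of 35 autophagy genes 19 were higher and 11 lower, with PIK3C3, the lipid kinase VPS34, at 2.27 and GABARAPL1 at -1.17.

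Targets of p53 had a median of 0.91 (GC trend removed, 0.86), with 15 of 20 higher and 5 lower, 10 and 4 of them past 2-fold. MDM2, which turns p53 over, had 12.8, 13.5 and 12.8 CPM in WT and 48.4, 50.8 and 53.3 CPM in siTDP43 (log2 change 1.96), and RRM2B, a ribonucleotide reductase subunit, rose by 1.62. CDKN1A, the cell cycle inhibitor p21, named after its values were seen, rose by 0.49, from 47.1, 41.8 and 45.1 to 64.1, 64.5 and 58.8 CPM. BBC3, which encodes the death factor PUMA, fell by 3.31, and PLK3, whose exons overlap another gene, had -2.73. The summed CPM of the list did not rise with its median, at 1204 to 1226 in WT and 1137 to 1170 in siTDP43. In HEK293T cells p53 is bound by large T antigen and E1B.

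Genes of DNA replication, mitosis and DNA repair were moderately higher. The medians were 0.36, 0.52 and 0.33, or 0.21, 0.21 and 0.26 with the GC trend removed. Of 47 replication genes 31 were higher and 10 lower, of 44 mitotic genes 30 and 9, and of 46 repair genes 27 and 9. GINS1, of the replicative helicase, had 20.4, 21.4 and 21.2 CPM in WT and 95.1, 106 and 99.4 CPM in siTDP43 (log2 change 2.25), while CDT1, the licensing factor, fell by 2.50. ZWILCH and KIF23 rose by 2.11 and 1.81 and ASPM fell by 1.62. TP53BP1 and MSH6 rose by 2.27 and 1.98, and PRKDC, the DNA-dependent protein kinase, went from 227, 231 and 229 CPM to 93.9, 85.5 and 91.7 CPM (-1.34). Exons of ZWILCH and MSH6 overlap other genes.

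**Figure D3:**
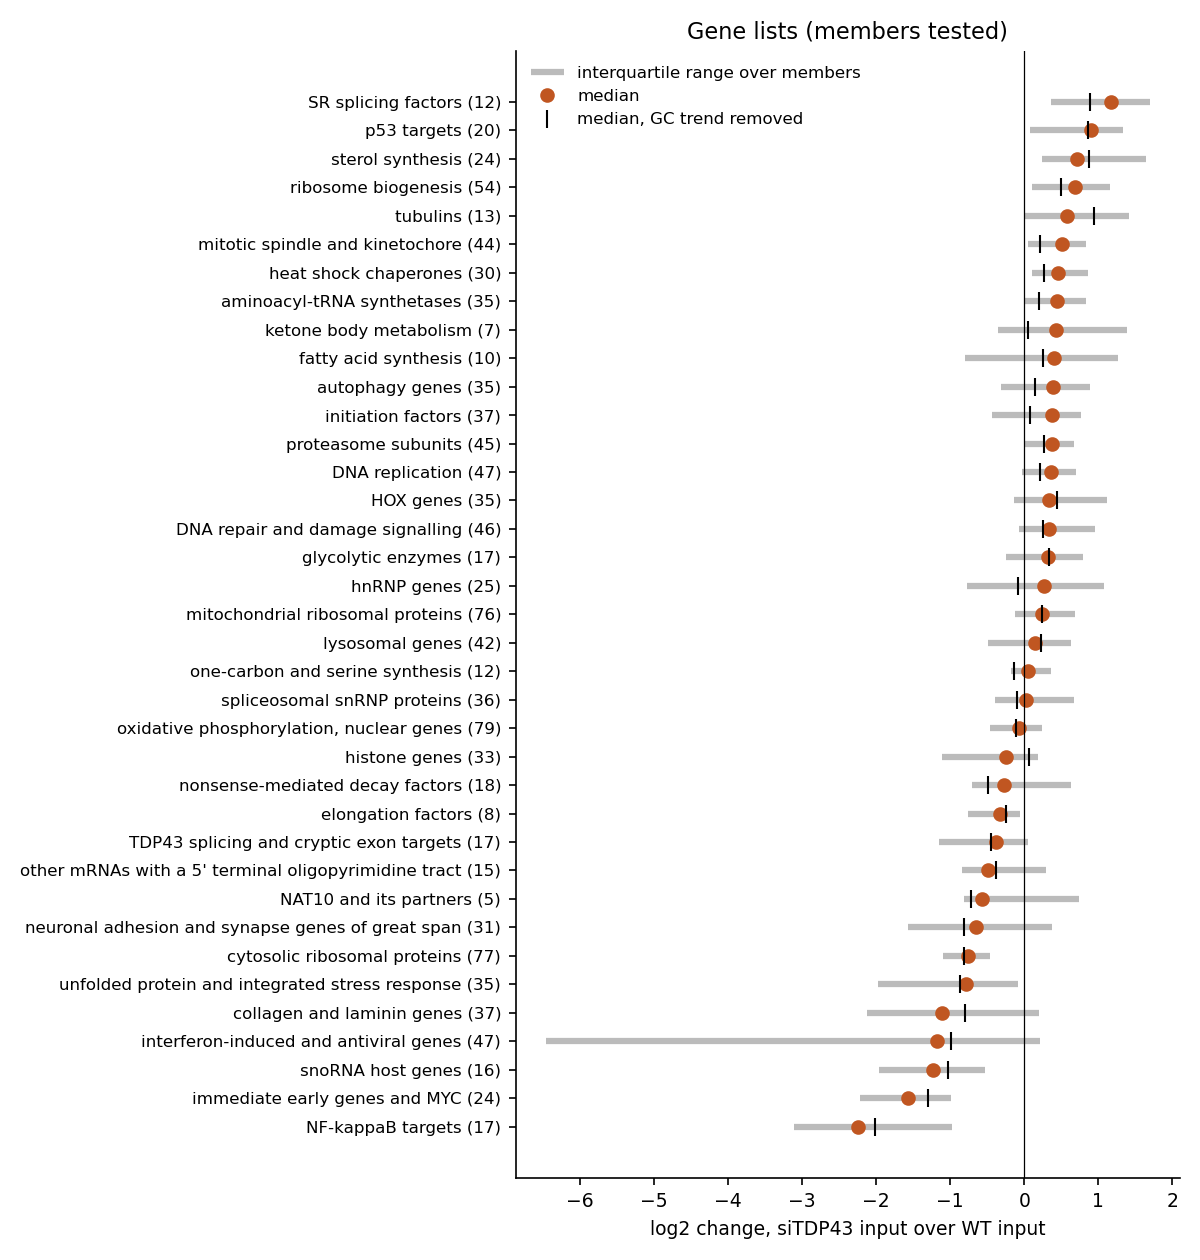
For each gene list with at least 5 members tested (the number in parentheses), the orange point is the median log2 change of siTDP43 over WT input, the grey bar the interquartile range over members and the black tick the median with the GC trend removed. SR splicing factors lie highest, at 1.17, and NF-kappaB targets lowest, at -2.24.

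Genes of structure and development were spread in both directions. Collagen and laminin genes had a median of -1.11 (GC trend removed, -0.79), with 24 of 37 lower and 5 higher and 20 more than 2-fold lower. COL4A2, of basement membranes, had 16.5, 14.8 and 12.5 CPM in WT and 0.465, 0.252 and 0.743 CPM in siTDP43 (log2 change -4.88), and COL9A3, whose exons overlap another gene, fell by 3.13. Tubulins had a median of 0.58 (GC trend removed, 0.95), with 8 of 13 higher and 3 lower. TUBA1A, the alpha tubulin of neurons and dividing cells, had 244, 251 and 251 CPM in WT and 1259, 1252 and 1225 CPM in siTDP43 (log2 change 2.33), and TUBB6 rose by 1.92. Of 35 HOX genes tested 17 were higher and 5 lower, with 11 more than 2-fold higher. HOXB5 and HOXB6, neighbours on chromosome 17 whose exons overlap other genes, rose by 2.18 and 1.99, while HOXB2 in the same cluster fell by 1.81.

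Markers of the labelled cell type were present, apart from CDH6, which had 0 counts in every input. Of 17 kidney and neural genes known in HEK293 cells, 14 were tested, 8 were lower and 5 higher, and their summed CPM was 1358 to 1391 in WT and 735 to 785 in siTDP43. VIM, vimentin, had 810.2, 837 and 831 CPM in WT and 285, 268 and 275 CPM in siTDP43 (log2 change -1.58), and KRT8, keratin 8, whose exons overlap another gene, fell by 2.30. NEFL, the light neurofilament, rose by 1.52. Markers of other cell types stayed low in both groups. Leukocyte markers summed to 5.87 to 7.24 CPM in WT and 6.12 to 7.24 CPM in siTDP43, with PTPRC, CD2 and MS4A1 at 0, and endothelial markers to 0.277 to 0.507 and 0.223 to 0.461 CPM, with 4 of 7 at 0. Hepatocyte markers summed to 1.32 to 2.16 and 0.629 to 0.93 CPM. Fibroblast markers summed to 13.1 to 14.1 and 5.83 to 6.37 CPM, with COL1A1 at 8.11, 8.08 and 6.82 against 1.86, 2.26 and 1.26 CPM. Squamous and gut epithelial markers went from 27.6 to 29.3 CPM in WT to 46.6 to 50.6 CPM in siTDP43, mainly through CDX2 (20.5, 20.9 and 19.5 against 43.3, 40.9 and 38.7 CPM).

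By gene class, long noncoding RNAs were lower than mRNAs. The 248 tested had a median of -0.38, with 29.4% more than 2-fold lower and 14.9% more than 2-fold higher, against a median of -0.03 over 12991 protein-coding genes with 21.4% and 15.8%. GNAS-AS1, antisense to the gene of the stimulatory G protein, had 6.03, 7.65 and 7.09 CPM in WT and 0.0664, 0 and 0 CPM in siTDP43, a ratio of 283 (95% counting interval 78.0 to 2341), and LINC00152 went from 42.3, 43.9 and 41.3 CPM to 0.996, 0.335 and 0.111 CPM (log2 change -6.38). MAGI2-AS3 rose by 3.87, and its exons overlap another gene. Pseudogenes (224) had a median of -0.25. Small RNAs were caught only as far as poly(A) selection and the library protocol let them: 89 snoRNA genes passed the filter, with a median of 0.22, and 9 microRNA precursors, with a median of 0.11. Of the 9, the 2 with a mean of at least 100 counts, MIR5047 and MIR3064 on chromosome 17, rose by 2.18 and 2.37. MIR5047 had 10, 8 and 12 counts in WT IP and 0 in each siTDP43 IP library, and MIR3064 had 11, 6 and 4 against 1, 0 and 0.

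Host genes of snoRNAs, whose introns carry snoRNAs and whose spliced transcripts are mostly degraded during translation, formed the noncoding group with the lowest median. Of 16 tested, 14 were lower and 2 higher, with 10 more than 2-fold lower and a median of -1.24 (GC trend removed, -1.03). Their summed CPM was 9216 to 9366 in WT and 4823 to 4859 in siTDP43. SNHG1 had 1236, 1230 and 1256 CPM in WT and 91.7, 95.4 and 95.02 CPM in siTDP43 (log2 change -3.72, SE 0.041, adjusted p 1.37e-34). SNHG7 fell by 3.17 and GAS5, named after its values were seen, by 1.89, from 1445, 1409 and 1381 to 385, 374 and 384 CPM. SNHG3 rose by 0.61. Exons of SNHG7, GAS5 and SNHG3 overlap other genes.

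Gene span was examined because TDP43 is known to maintain mRNAs with very long introns. Of 171 genes that span over 500 kb, 34.5% were more than 2-fold lower and 9.36% more than 2-fold higher, against 18.5% and 18% of the 4228 genes of 30 to 100 kb and 21.6% and 15.5% of all genes. The median of the longest class was -0.49, and -0.70 with the GC trend removed. The relation was not steady over all spans, as genes under 10 kb (3330) were also lower, with 24.5% and 13.9% past 2-fold and a median of -0.18, which became 0.03 with the GC trend removed. After that removal the medians ran from 0.03 under 10 kb through -0.03, -0.07, -0.30 and -0.38 to -0.70 over 500 kb. Long genes also had fewer counts: 90 of the 171 had a mean of at least 100 counts, and the median of those was -0.21. Across all 13895 genes with a span, the Spearman rho with the log2 change was 0.0431, and -0.0873 with the GC trend removed.

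Within the longest class, single genes moved in both directions. NELL1 had 15.2, 17.1 and 13.98 CPM in WT and 0.332, 1.51 and 0.297 CPM in siTDP43 (log2 change -4.51). FGF13, FHIT and DACH2 fell by 3.98, 2.54 and 2.87. SPOCK3, a proteoglycan of the brain, had 0.139, 0.533 and 0.419 CPM in WT and 16.8, 17.9 and 14.5 CPM in siTDP43 (5.42), and GALNT13, NRXN3 and MECOM rose by 3.37, 2.64 and 1.92. Adhesion and synapse genes of great span, a class in which loss of TDP43 lowers many mRNAs in neurons, had a median of -0.65, with 16 of 31 lower and 7 higher. Among the 13 of these with a mean of at least 100 counts the median was 0.16.

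TG repeats, which give UG repeats in the transcript, were counted on the sense strand of each gene as runs of at least 6 units. Genes with 6 or more such runs (1284) had a median of -0.26 and genes with none (7095) -0.06, or -0.40 and 0.02 with the GC trend removed. Long genes hold more runs, so spans were compared separately. Among genes of 30 to 100 kb, the medians with 0, 1 to 2, 3 to 5 and 6 or more runs were 0.16, 0.09, 0.03 and -0.28 (1311, 2027, 772 and 118 genes), or 0.04, -0.10, -0.15 and -0.18 with the GC trend removed. Among genes of 100 to 250 kb the order was not the same: the 65 genes with no run had -0.29 and the 553 with 6 or more had -0.23.

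Matches to the siRNA seeds in 3' untranslated regions were counted as well. Genes with GGAATTC, the match to the seed of siRNA 1, had a median of 0.01 (1389 genes) and genes without it -0.03 (10304), or -0.19 and -0.04 with the GC trend removed. For ATATGAT, the match for siRNA 2, the medians were 0.17 (1623) and -0.06 (10070), or -0.14 and -0.04 with the GC trend removed. Long untranslated regions hold more matches and less GC. With the GC trend removed, the medians with and without the match in the class of shortest regions were -0.29 and -0.02 for siRNA 1 (103 and 3795 genes) and -0.08 and -0.02 for siRNA 2 (101 and 3797 genes). In the class of longest regions the medians with and without the match were -0.19 and -0.11 for siRNA 1 and -0.17 and -0.10 for siRNA 2 with the GC trend removed.

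**Figure D4:**
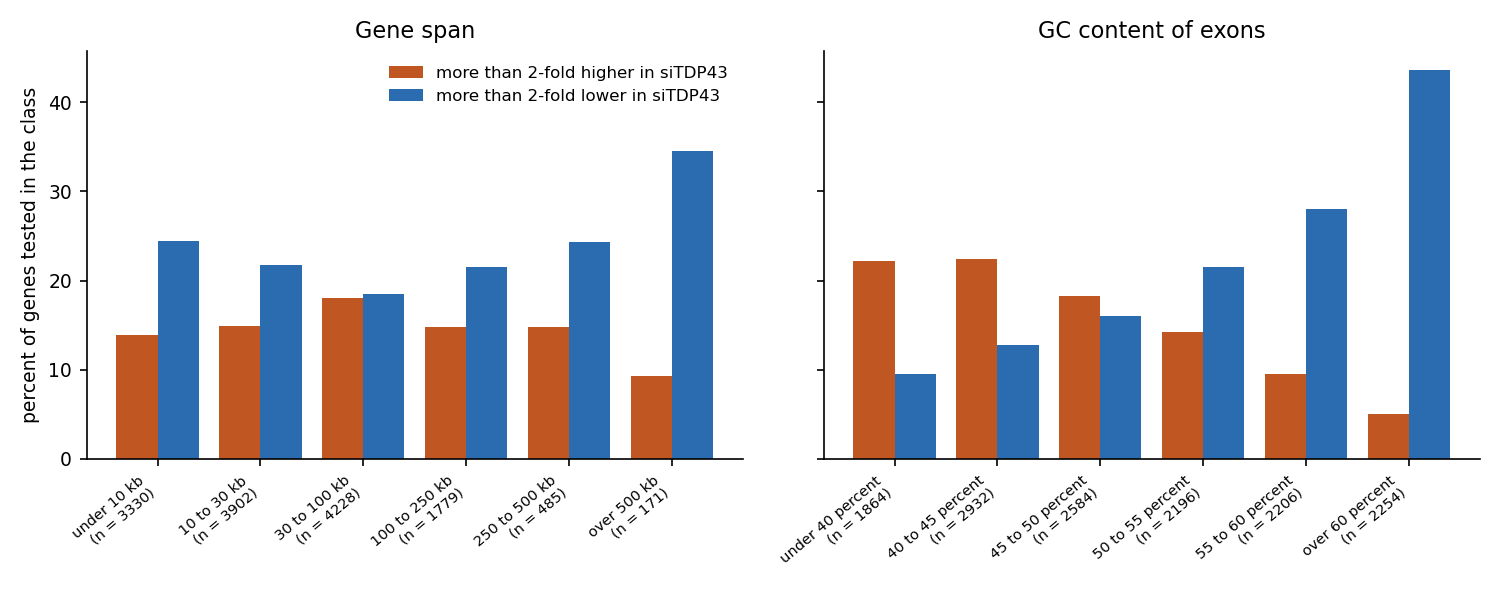
Bars give the percentage of tested genes that were more than 2-fold higher (orange) or lower (blue) in siTDP43 input, by gene span on the left and by GC content of exons on the right. Genes over 500 kb reach 34.5% lower and genes over 60% GC reach 43.6% lower.

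Along the chromosomes, neighbouring genes shared a direction in places. Tested genes were grouped in 336 windows of 40 adjacent genes, and the window medians ran from -1.43 to 0.79 with an interquartile range from -0.25 to 0.20. The lowest window lay on chromosome 19 (55555692 to 57168614), where 32 of 40 genes were below 0. Its GC content was 63.2%, and its median rose from -1.43 to -0.65 with the GC trend removed. It depended on where windows began: the overlapping windows of 20 genes had -1.92 and -0.37, and those of 60 genes -0.67 and 0.17. Chromosome 19 as a whole had the lowest median, -0.50 (970 genes), and -0.07 with the GC trend removed.

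Chromosome 17 held a run of low windows and a run of high windows. Between 21431571 and 40117668, 4 adjacent windows had medians from -1.11 to -0.71, and 125 of their 160 genes were below 0, 69 of them more than 2-fold lower and 8 more than 2-fold higher. Between the runs lay 4 windows with medians of 0.24, 0.05, -0.24 and -0.23. Between 53046126 and 77478563, 5 adjacent windows had medians from 0.39 to 0.57, and 133 of 200 genes were above 0. These stretches kept their medians with the GC trend removed, -0.79 against -0.74 and 0.51 against 0.50, and over the 3 siTDP43 libraries the medians were -0.81 to -0.74 and 0.45 to 0.53. In IP libraries, the 150 and 190 of these genes that were tested there had medians of -1.17 and 0.16 beside -0.23 for all genes. In IgG libraries, 123 and 158 of them had -1.11 and 0.34 beside -0.31. The 3 most abundant genes of the lowest of these windows, ZNF207, UTP6 and PSMD11, had log2 changes of 0.19, 0.46 and 0.41, so the shift did not hold for each gene. With windows of 20 genes the windows that overlap that one had -1.20 and -1.11, and with windows of 60 genes -0.83 and -0.81.

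Chromosome 13 had a more uneven stretch from 39261173 to 114018463, where the 4 window medians ran from -0.71 to -0.18, the latter within the interquartile range of all windows. There 110 of 160 genes were below 0 and the median was -0.51, or -0.82 with the GC trend removed. In IP and IgG libraries the medians were -0.65 over 151 and -1.09 over 114 of these genes. The highest window lay on chromosome 8 (66514691 to 75767264), where the median was 0.79 and 15 of 40 genes were more than 2-fold higher, with RPL7 and TRAM1 (0.96) among its most abundant genes, and 0.43 with the GC trend removed. The next highest lay on chromosomes 9 (18474079 to 33573001, 0.67) and 10 (99116458 to 102724891, 0.64), and with windows of 60 genes those that overlap the window on chromosome 9 had 0.00 and 0.29. Copy number was not measured, so its part in these stretches was not tested.

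**Figure D5:**
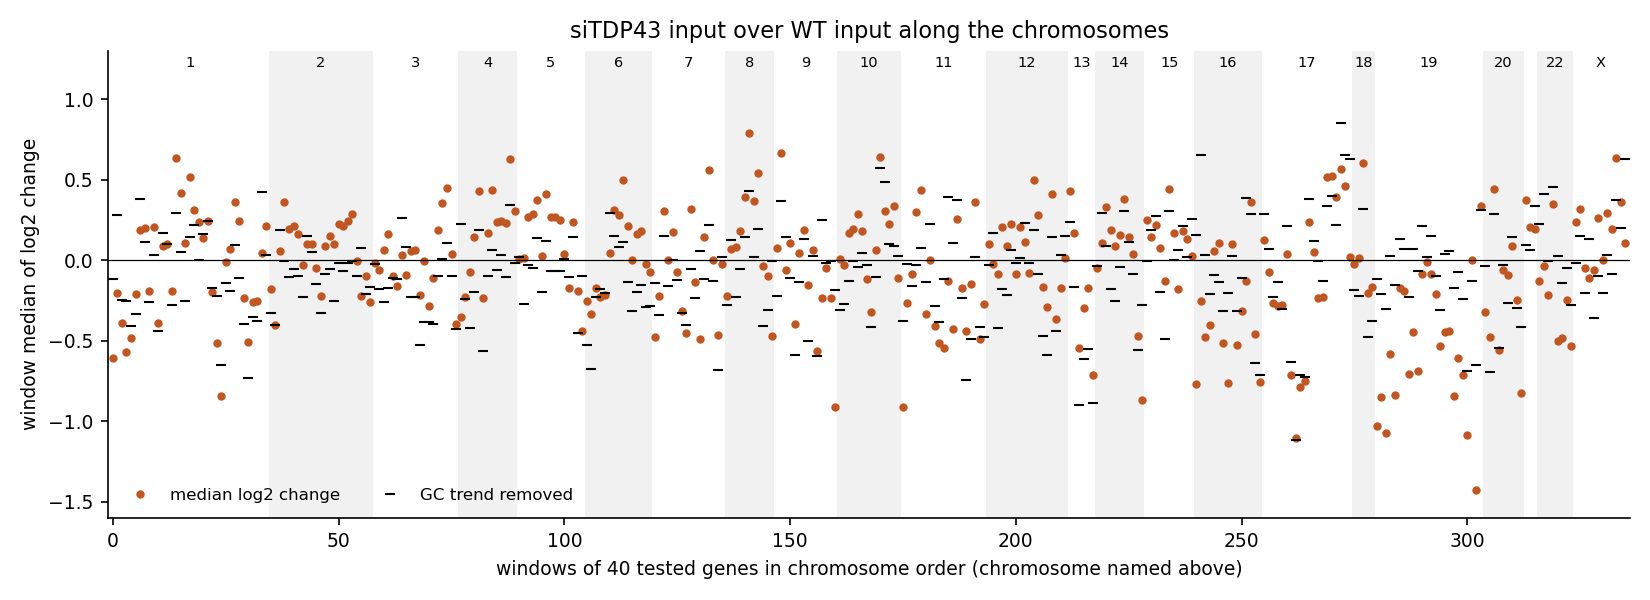
Each orange point is the median log2 change of 40 adjacent tested genes, in order along the chromosomes named above the shaded bands, and each black tick is the same median with the GC trend removed. On chromosome 17 a run of 4 windows lies between -1.11 and -0.71 and a later run of 5 windows between 0.39 and 0.57.

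The pull-down libraries of both genotypes hold the same genes after an enrichment step, and their counts can be set beside those of the inputs for the mRNAs that appeared or vanished. CCL5 had 2547, 2830 and 2571 counts in WT IP and 517 and 565 in WT IgG, against 1, 0 and 0 in siTDP43 IP and 0, 6 and 1 in siTDP43 IgG. PNPLA4 had 436, 455 and 510 counts in WT IP and 0 in each siTDP43 IP library, and MFAP2 had 590, 526 and 514 against 2, 0 and 0. OXCT1 had 59, 56 and 58 counts in WT IP and 699, 537 and 346 in siTDP43 IP. These mRNAs, chosen from those that appeared or vanished, were high or low in the same genotype in each kind of library. Others were not. RPS2, which fell by 3.28 on the log2 scale in the inputs, had a log2 change of 0.34 between the IP libraries, XBP1 one of -0.01 against -3.30, and NAT10 one of 0.00 against 1.12. Some list medians also differed in sign, beside -0.23 for all genes in IP. Cytosolic ribosomal proteins had 1.44 in IP against -0.76 in the inputs, and snoRNA host genes 0.55 against -1.24. Other mRNAs with a terminal oligopyrimidine tract had 1.19 against -0.49. The interferon and sterol synthesis lists kept their sign in IP, at -1.06 and 0.94. A level in an IP library depends on ac4C and on the antibody as well as on the abundance of the mRNA, and the values are given side by side only.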

How the data were processed

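Poly(A) RNA of HEK293T cells was sequenced as input before acRIP, 3 libraries labelled WT and 3 labelled siTARDBP, grouped by their titles. Per the submitters' processing notes the authors used Trim Galore 0.6.7, STAR 2.7.10a and featureCounts 2.0.2, which by the methods counted reads mapped to a single place. The methods name hg19, whereas the labels list a mouse build for these human samples. No exon in the table lay beyond the end of an hg19 chromosome, and hg19 was used. Libraries were made by SMART-seq2 without molecular identifiers, so intervals and floors cover no more than counting error. The deposited values are raw counts per gene with no normalization. Strand setting and handling of pairs are not given in the sources used here. From 81.3 to 88.3% of counts between 1 and 20 were even, so a pair was mostly counted as 2 reads. The intervals and floors took each count as independent. Intervals are therefore too narrow and floors too low even for counting error. Exons of 3757 genes overlap another gene.

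The test was that of edgeR 4.0.16 under R 4.3.3 (quasi-likelihood F test, two-sided, TMM, filterByExpr with a minimum count of 10, Benjamini-Hochberg over the 14036 genes tested). It was tried on counts simulated with the depth and spread of these libraries, where 97% of 200 changed genes were recovered and 2.51% of calls were false (13865 genes). Few genes changed there, evenly up and down, whereas most genes were called in the data. Those rates therefore do not carry over to this comparison. A printed SE is the absolute log2 change divided by the square root of the F statistic. It is no measure of error where a group has few counts. Lists, classes and windows were described by counts and medians without a test. The lists and the rules for naming genes were chosen with earlier results of these data known. Genes named were TARDBP, NAT10, THUMPD1, PCBP1, PCBP2, OXCT1, the 8 largest rises and falls by fitted log2 change (adjusted p under 0.05, no overlap between groups, 100 or more counts on average), the 2 highest and 2 lowest of each list and noncoding class with such a mean, 4 and 4 over 500 kb, and the 3 most abundant genes of the 3 highest and 3 lowest windows. Not all are printed, and those named outside the rule were chosen after their values were seen. GC content and span came from GRCh37, gene types and promoters from RefSeq. Of 23368 genes 22072 had a type. A group with no count was set to 3 counts per library for a bound, and groups with 1 to 3 counts in all were given a ratio with an exact interval at 95%. Replicate numbers were checked as pairs, and the correlations of same-numbered libraries were -0.0102 to 0.0198, so no block was used.

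The alternatives were other scalings, DESeq2 1.42.0, dropping the low-count filter, keeping genes that average 50 or more counts, fitting all 17 libraries, adding the replicate number as a block, trends on GC content or exonic length removed from each library, counts halved, glmTreat, and leaving out each library. Chosen after seeing the data were the list of other mRNAs with a terminal oligopyrimidine tract, windows and span classes with the GC trend removed, and list medians over genes with a mean of at least 100 counts. Some genes that the naming rule selects are not reported here.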

Additional observations from a re-analysis of the deposited data

How the results depend on the processing

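The counts of genes called kept within 1.5 times of their values under every alternative run. Higher genes ranged from 4247 (upper quartile scaling) to 5633 (no low-count filter) and lower genes from 5026 (mean of at least 50 counts) to 6986 (upper quartile scaling). Past 2-fold, the counts were 1481 to 2378 higher and 2161 to 3885 lower, where 2161 came from glmTreat against 2-fold. Without each library in turn they were 5257 to 5400 higher and 5438 to 5730 lower. The log2 change of TARDBP was -0.97 with the GC trend removed and -0.82 with upper quartile scaling, and -0.60 to -0.54 without each library. With the replicate block, 5376 genes were higher and 5643 lower and TARDBP changed by -0.57, and of the named genes only TCEB1 changed its call (adjusted p 0.0765 without and 0.032 with the block).

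Directions reversed as follows, where medians of lists are relative to the median of all genes. With the GC trend removed, C19orf48 had 0.144, FASN 0.117, ISOC2 0.586, ZNF207 -0.152, spliceosomal snRNP proteins -0.010, one-carbon and serine synthesis -0.049 and histone genes 0.150. With the replicate block as well, the values were 0.144, 0.112, 0.584, -0.152, -0.007, -0.048 and 0.211. With the trend on exonic length removed, NDUFB6 had 0.382, POLD1 -0.061, ATG4B -0.024 and histone genes 0.191. With upper quartile scaling POLD1 had -0.194, ATG4B -0.191, SNORA67 -0.060 and ZNF207 -0.061, and with total count scaling POLD1 had -0.035 and ATG4B -0.033. A mean of at least 50 counts gave -0.002 for spliceosomal snRNP proteins and 0.152 for neuronal genes of great span, and halved counts gave 0.110 for the latter. Without each library in turn NFKB1 ranged from -0.28 to 0.028 and POLD1 from -0.026 to 0.13. The cause was not tested. Genes with few counts have bounds only.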
